A study of Mus musculus with 36 samples.

Results

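The transcripts of 10 genes that mark the oligodendrocyte and astrocyte lineages were followed in neural stem cells (NSCs) and in the extracellular vesicles (EVs) that these cells secrete. The members were taken by name: Olig1, Olig2, Nkx2-2, Sox10, Pdgfra and Cspg4 of the oligodendrocyte lineage, and Gfap, S100b, Aldh1l1 and Aqp4 of the astrocyte lineage, 10 of the 40205 features that were counted. The NSCs came from C57BL/6J mouse fetuses, which the labels give as WT and the study's methods as the Ai14 line, whose reporter allele needs Cre to be expressed, at gestational day 12.5, from the dorsal telencephalon, the tissue that forms the future isocortex. Fetal tissue of a pregnancy was pooled by sex, so that each of 3 pregnancies (sets 3, 4 and 5) gave 1 female and 1 male culture, named 3F, 3M, 4F, 4M, 5F and 5M here. The cultures grew as free-floating neurospheres in serum-free mitogenic medium, were used at passages 7 to 10, and were kept for 5 days without ethanol or with 120 mg/dL (26 mM) or 320 mg/dL (70 mM) ethanol. Each culture and dose, pooled from 4 flasks, gave 1 library of the cells and 1 of the EVs, which made 18 cell and 18 EV libraries, 3 per condition of location, sex and dose. A culture is thus a pool of fetuses rather than 1 animal, and its 3 dose samples share that source.

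Oligodendrocytes insulate axons with myelin, and astrocytes support neurons, take up transmitters and contact vessels. Both arise from the neural stem cells of the ventricular zone after most neurons have been born. The transcription factors Olig1, Olig2 and Nkx2-2 act early in the oligodendrocyte lineage and Sox10 later, while Pdgfra, a receptor for platelet-derived growth factor, and Cspg4, the NG2 proteoglycan, mark the cycling precursors on their surface. Neurosphere cells held in mitogens are known to express Olig2 without being committed to that lineage. Gfap encodes the intermediate filament of astrocytes and of many adult neural stem cells, S100b a calcium-binding protein, Aldh1l1 a folate-metabolizing enzyme, and Aqp4 the water channel of astrocyte end-feet.

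Olig1 and Olig2 are neighbours on the plus strand of chromosome 16 of GRCm39 (GENCODE annotation), Olig2 at 91019435 to 91025567 and Olig1 at 91066660 to 91068821, with 41.1 kb between them. On the same build Pdgfra lies at chr5:75311994-75358876, Cspg4 at chr9:56772317-56807187, S100b at chr10:76085090-76097159 and Aldh1l1 at chr6:90463409-90577185 on the plus strand, and Sox10 at chr15:79039108-79049469, Nkx2-2 at chr2:147019466-147036163 and Gfap at chr11:102778159-102791738 on the minus strand. The promoters of Olig1 and Olig2 are shown because both genes were lower with 320 mg/dL ethanol in the cells of set 3, and that of Gfap because it varied most between cultures. Each window runs from 250 bases before to 50 bases after the start of the canonical transcript and is printed 5′ to 3′ along the gene, and capitals mark every match, on either strand, to the GC box GGGCGG, to the CAAT box written CCAAT or to the TATA box written TATAAA.
Olig1, chr16:91066410-91066709, plus strand: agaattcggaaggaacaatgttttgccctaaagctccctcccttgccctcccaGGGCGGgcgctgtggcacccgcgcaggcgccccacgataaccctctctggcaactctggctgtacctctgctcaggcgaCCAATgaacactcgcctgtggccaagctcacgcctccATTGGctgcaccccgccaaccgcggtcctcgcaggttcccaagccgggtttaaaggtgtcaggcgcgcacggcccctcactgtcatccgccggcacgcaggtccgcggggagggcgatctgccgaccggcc
Olig2, chr16:91022048-91022347, plus strand: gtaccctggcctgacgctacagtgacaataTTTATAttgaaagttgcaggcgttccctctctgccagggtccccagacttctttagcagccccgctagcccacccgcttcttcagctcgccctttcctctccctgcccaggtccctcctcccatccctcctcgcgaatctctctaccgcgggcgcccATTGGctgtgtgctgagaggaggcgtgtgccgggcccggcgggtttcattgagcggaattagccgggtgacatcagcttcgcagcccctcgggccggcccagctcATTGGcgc
Gfap, chr11:102788136-102788435, minus strand: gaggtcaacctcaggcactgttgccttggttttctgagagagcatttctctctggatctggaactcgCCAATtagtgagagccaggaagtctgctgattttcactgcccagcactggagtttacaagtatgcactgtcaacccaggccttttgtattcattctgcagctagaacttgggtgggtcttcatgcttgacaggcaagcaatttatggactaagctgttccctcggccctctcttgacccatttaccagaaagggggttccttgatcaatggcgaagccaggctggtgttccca
The Olig1 window held 26 CpG dinucleotides and 66.0% G or C, that of Olig2 20 and 62.7%, and that of Gfap 3 and 50%, against medians of 11 and 54.3% over 21738 protein-coding promoters of the same length. GGGCGG was present in 42.5% of those promoters, CCAAT in 39.9% and TATAAA in 13.2%. Neither the STAT-type motif TTCNNNGAA nor the E-box CAGCTG, which 8.81% and 14.8% of promoters held, matched any of the 3 windows.

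Libraries held 26.6 to 55.3 M (mega) counts in cells and 0.959 to 5.51 M in EVs, and 6 of the 18 EV libraries held under 2 M. Levels are given as CPM, the count of a gene relative to the total of its library, after trimmed-mean (TMM) scaling over all 36 libraries, and they are compared only within a gene. Of the neural stem cell markers, Nes ranged from 79.0 to 411 CPM and Msi1 from 13.1 to 30.2 CPM in cells, whereas Sox2 and Sox1 were listed at 0 in every library. Of the markers of the labelled dorsal telencephalon, Pax6 ranged from 7.73 to 31.1 CPM and Emx2 from 3.39 to 9.23 CPM in cells, while Emx1 stayed at or below 0.365 CPM. The 10 ventral markers summed to between 4.58 and 25.7 CPM in cells and the 8 dorsal ones to between 23.4 and 45.5 CPM. Summed over each list, markers of microglia stayed at or below 0.961 CPM in cells, of endothelium at or below 6.26 CPM and of fibroblasts at or below 3.50 CPM. These are bulk libraries, so that fewer cells of a type and less RNA per cell cannot be told apart.

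Of the 10 members, 9 were detected, each with counts in all 18 cell libraries. Aqp4 was listed at 0 in all 36 libraries, and 3 counts, the most that a count of 0 allows, come to at most 0.118 CPM in a cell library and 5.09 CPM in an EV library, for counting error only. In the RefSeq gene table (GRCm38.p6), 66.5% of its span is covered by the non-coding gene A830021F12Rik. Over the series, 93.8% of 934 protein-coding genes whose span lies wholly inside other genes were listed at 0, against 0.644% of 7761 that are covered in part and 6.82% of 13017 that are not covered. Sox2, Sox1 and Gpr17 lie wholly inside other genes. For Aqp4, a lack of transcript and a loss in counting cannot be told apart. The span of Nkx2-2 is 59.9% covered, by its antisense gene Nkx2-2os and another transcript. In the GENCODE annotation, 12.2% of its exon length overlaps exons of other genes on either strand, and 0.0% of that of Aqp4. The Nkx2-2 values, from 13 to 383 counts per cell library, are uncertain by an amount that was not measured.

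Between cultures, 8 of the 9 members tested differed in cells (edgeR quasi-likelihood test, Benjamini-Hochberg adjusted p under 0.05), as did 70.2% of all genes tested. The median span between the lowest and the highest culture was 2.24 on the log2 scale over the 9 members and 0.98 over all 17792 genes. Gfap had the widest span, 3.49 on the log2 scale (adjusted p = 3.24e-08), followed by Nkx2-2 with 3.11 and Sox10 with 2.62. Cspg4 alone did not pass, with a span of 0.56 (adjusted p = 0.596), and Sox10 did not pass without set 5 (span 1.35, adjusted p = 0.0502).

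The early transcription factors did not share an order of cultures. Olig1 averaged 391 CPM ± 88.6 (SD, n = 3 doses) in 3M and 342 CPM ± 86.1 in 3F, then 272 CPM ± 11.5 in 5M, 251 CPM ± 9.73 in 4F, 183 CPM ± 12.3 in 4M and 155 CPM ± 2.22 in 5F. Neighbours in this order from 5M downwards did not overlap over their doses, whereas 3F overlapped both 3M and 5M. Olig2 was highest in 3F at 128 CPM ± 32.2 and 5F at 115 CPM ± 7.84, and lowest in 3M at 53.0 CPM ± 11.0 and 5M at 31.8 CPM ± 1.96. Male culture 5M thus stood near the middle for Olig1 and last for Olig2. Nkx2-2, which works with Olig2 in specifying oligodendrocytes, averaged 4.75 CPM ± 0.387 in 3M and 2.60 CPM ± 0.0525 in 5M, with all 3 doses of each apart from the other cultures, and 0.559 CPM ± 0.176 in 4M.

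Of the precursor genes, Pdgfra was highest in 5F (31.5 CPM ± 9.82), 4M (25.8 CPM ± 4.86) and 5M (20.1 CPM ± 4.33), and each of their 9 libraries lay above those of 4F, 3F and 3M, of which 3M was lowest at 6.38 CPM ± 1.74. Sox10 ranged from 0.354 to 4.54 CPM, or from 23 to 235 counts, and no 2 neighbouring cultures in its order were apart over their doses. The 2 libraries of 5F with ethanol were the highest for Sox10, with 4.505 CPM at 120 mg/dL and 4.54 CPM at 320 mg/dL, against 1.08 CPM in the control of that culture. Cspg4 lay between 13.2 CPM ± 4.86 in 3F and 19.4 CPM ± 2.35 in 4M.

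The 3 detected astrocyte members were highest in the same 2 male cultures, 3M and 5M. Astrocyte genes outside the members were mixed. Aldoc was also highest there, at 166 CPM in 3M and 153 CPM in 5M. Sox9 was lowest in 3M at 19.3 CPM against 91.4 CPM in 5M, and Slc1a3 stood at 704 CPM in 3M and 1122 CPM in 4M. Gfap averaged 176 CPM ± 19.0 in 5M and 175 CPM ± 33.3 in 3M, between 35.4 and 62.3 CPM in 5F, 4F and 4M, and 16.8 CPM ± 6.05 in 3F, the sister culture of 3M. All 6 libraries of 5M and 3M lay above all 12 others. Aldh1l1 averaged 23.4 CPM ± 1.53 in 3M, 18.3 CPM ± 0.343 in 5M and 4.47 CPM ± 1.09 in 3F. S100b varied least of the 3, from 12.6 CPM ± 1.22 in 5M to 6.28 CPM ± 1.43 in 3F, and only 4M and 4F were neighbours whose doses did not overlap.

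**Figure D1:**
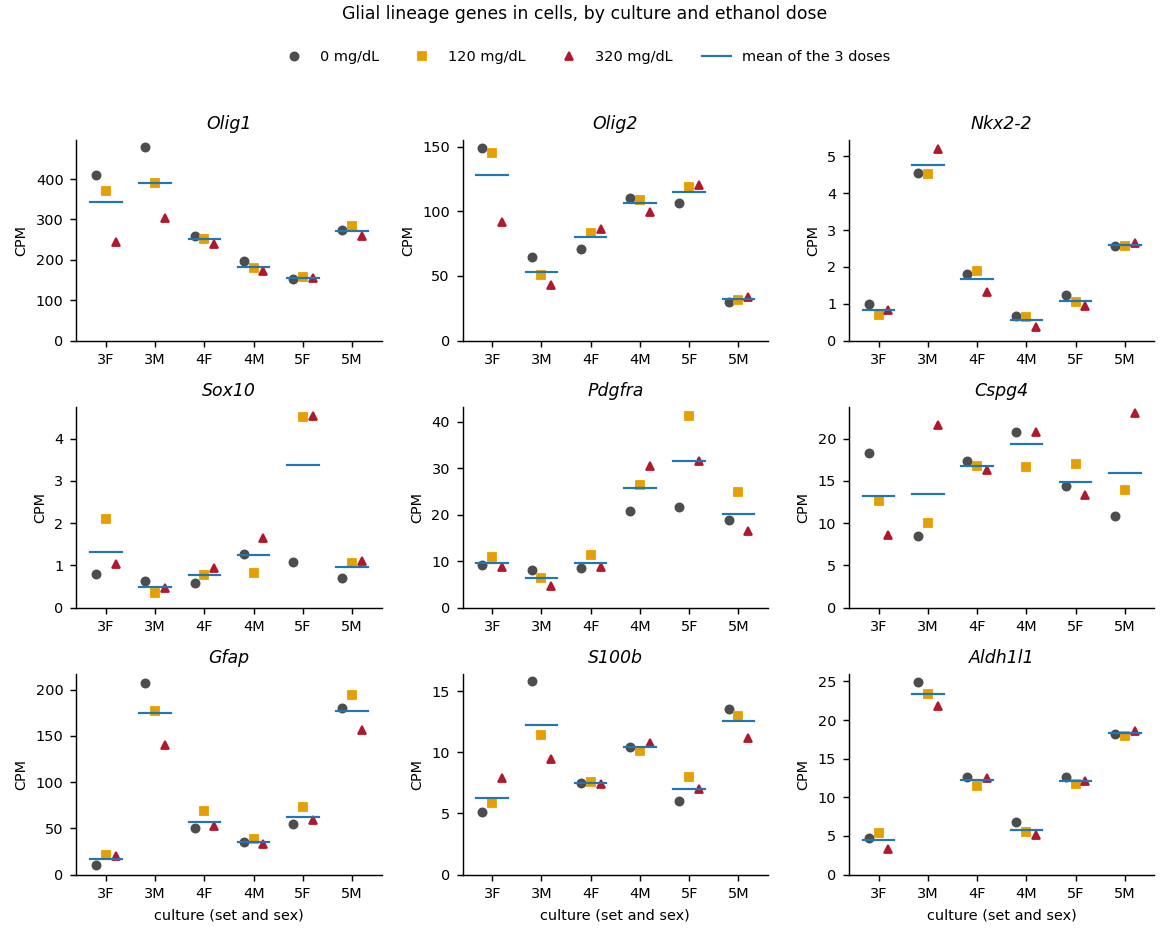
CPM of the 9 detected members in cells (y axis, from 0) in each of the 6 cultures (x axis), with 1 point for each ethanol dose and a bar at the mean of the 3 doses. Gfap, Aldh1l1 and Nkx2-2 stand highest in 3M and 5M, Olig2 is lowest in 5M, and Olig1 and Olig2 are lower at 320 than at 0 mg/dL in 3F and 3M.

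For the 3 members with the widest spans, the genes with the most similar pattern over the 18 cell libraries were found among 17792, as the root mean square difference of log2 CPM after centring each gene. They were Mmp14 (0.44), Dio2 (0.46) and Enpp1 (0.47) for Gfap, whose own root mean square was 1.25. For Nkx2-2 they were A830019P07Rik (0.34), C230024C17Rik (0.38) and Prex2 (0.39), and for Sox10 Oprl1 (0.48), 2610316D01Rik (0.50) and the Notch target Hes5 (0.54). The 18 libraries share 6 cultures, and the Nkx2-2 and Sox10 values rest on low counts.

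Ethanol was compared with control within culture, since the 3 doses of a culture share a source. No member passed the test at either dose in cells or EVs, and few other genes did: 0.0393% of 17792 genes were called at 320 mg/dL in cells, 0% at 120 mg/dL and 0% between the doses, and in EVs 0.0842% of 11880 genes at 320 mg/dL and 0.00842% at 120 mg/dL. In cells, 1 of the 9 members had an unadjusted p under 0.05 at 320 mg/dL, 2 at 120 mg/dL and none between the doses, beside 1525, 444 and 633 of all 17792 genes. In EVs 1 of 8 and none did, beside 1410 and 744 of 11880 genes. DESeq2 also called no member. The fits share their control libraries.

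Olig1 came nearest in cells. Its control level ranged from 152 to 480.0 CPM over the 6 cultures with a median of 267 CPM, and its level at 320 mg/dL from 156 to 303 CPM with a median of 243 CPM. It was lower at 320 mg/dL in 5 of 6 cultures, by -0.28 ± 0.10 (SE) on the log2 scale (95% interval -0.50 to -0.07, unadjusted p = 0.0117, adjusted p = 0.425 in edgeR). The exact sign-flip test over the 6 cultures gave p = 0.0625, where the smallest it can give is 0.03125.

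Most of that difference lay in set 3. In 3F, Olig1 stood at 410.0 CPM without ethanol, 371 CPM at 120 mg/dL and 245 CPM at 320 mg/dL, and in 3M at 480.0, 391 and 303 CPM. In 5F the same 3 levels were 152, 156 and 156 CPM, and in 5M 275, 282 and 259.8 CPM. On the log2 scale, Olig1 at 320 mg/dL differed from control by -0.74 in 3F and -0.66 in 3M, and by between -0.19 and 0.03 in the other 4 cultures.

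Olig2 had the same split. In 3F its level was 149 CPM without ethanol, 145 CPM at 120 mg/dL and 91.4 CPM at 320 mg/dL, and in 3M 64.9, 51.0 and 43.3 CPM, whereas it was slightly higher at 320 mg/dL than in control in 4F, 5F and 5M. The log2 differences at 320 mg/dL were -0.71 and -0.58 in set 3 and between -0.14 and 0.28 elsewhere. Over the 6 cultures Olig2 differed by -0.12 ± 0.12 (SE), with an interval of -0.38 to 0.13. A test of whether the 320 mg/dL difference varied between sets, added after these values were seen, gave unadjusted p of 0.00562 for Olig1 and 0.00415 for Olig2 in edgeR but adjusted p of 0.9995 for both, and called 0% of 19238 genes. In DESeq2 the same test called 12 genes, Olig1 among them (adjusted p = 0.0247) but not Olig2 (adjusted p = 0.407). Set 3 holds 1 library per culture and dose, so that its pattern rests on 2 libraries at each dose. In the EVs of set 3 the pair was not lower at 320 mg/dL, with log2 differences of 0.08 and 0.04 for Olig1 and 0.02 and 0.11 for Olig2. The test of whether EVs and cells differed in the 320 mg/dL response called 0% of 18728 genes, with 0.28 ± 0.20 (SE) for Olig1 and 0.27 ± 0.19 for Olig2.

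**Figure D2:**
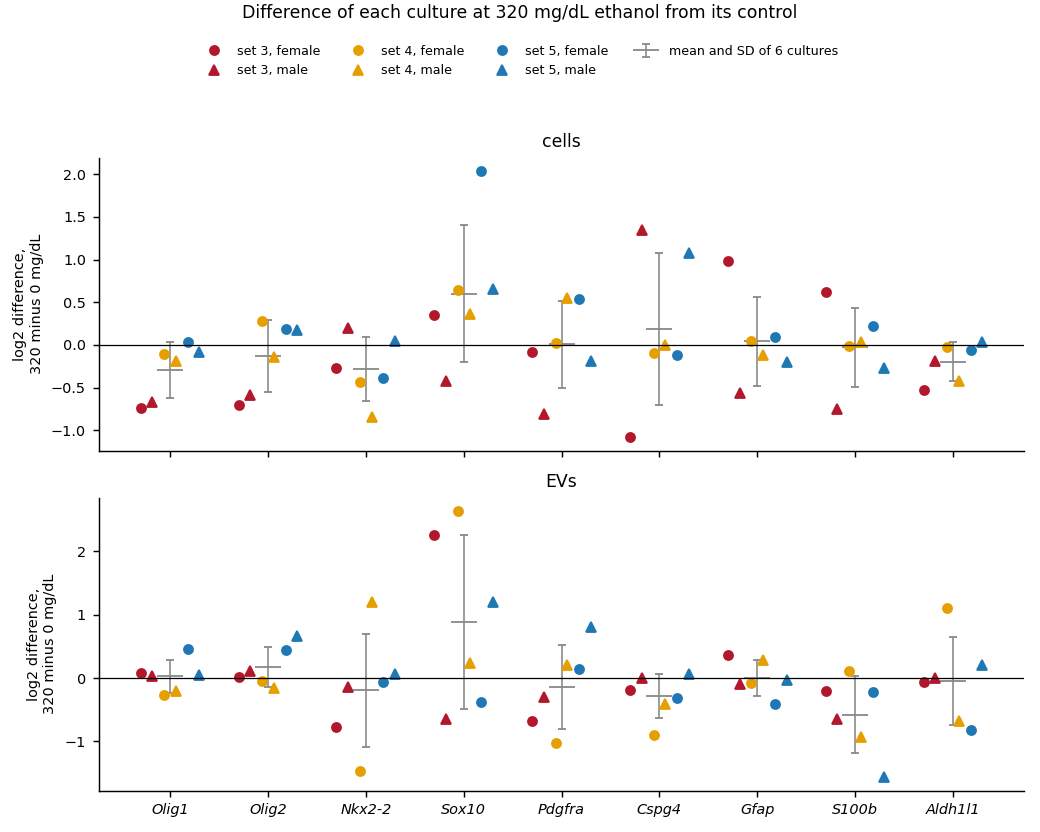
Log2 difference of each culture at 320 mg/dL ethanol from its own control (y axis) for the 9 detected members (x axis), in cells above and in EVs below. Colours mark the set, circles are female and triangles male cultures, and grey bars give the mean and SD of the 6 cultures; Olig1 and Olig2 of both set 3 cultures lie between -0.74 and -0.58 in cells, and the Nkx2-2, Sox10, S100b and Aldh1l1 points in EVs rest on few counts.

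The other oligodendrocyte members had no common response to ethanol. Pdgfra in cells was higher at 120 mg/dL in 5 of 6 cultures (0.32 ± 0.15, SE, unadjusted p = 0.0497 and adjusted p = 0.9999 in edgeR), and at 320 mg/dL it ranged from -0.81 in 3M to 0.55 in 4M with a fitted difference of 0.01 (interval -0.31 to 0.34). In 5F its level went from 21.7 CPM in control to 41.3 CPM at 120 mg/dL and 31.5 CPM at 320 mg/dL. Sox10 was 0.63 ± 0.33 (SE) higher at 320 mg/dL in cells with 5 of 6 cultures higher, and 0.87 ± 0.45 higher in EVs with 4 of 6, neither past the test (unadjusted p = 0.0764 and 0.0694). Nkx2-2, at 13 to 383 counts per cell library, differed by -0.23 at 320 mg/dL in cells (unadjusted p = 0.885 in edgeR).

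Cspg4 lay on opposite sides of control in the 2 sexes at 320 mg/dL, but close to it in 4F, 5F and 4M. At 320 mg/dL it stood at 8.62 CPM in 3F against 18.3 CPM in control, while in 3M it stood at 21.6 CPM against 8.49 CPM and in 5M at 23.0 CPM against 10.8 CPM. All 3 male cultures were above control, 4M by 0.00 on the log2 scale. All 3 female ones were below control, 4F by -0.10 and 5F by -0.11. The difference between the female and the male response was -1.31 ± 0.35 (SE) on the log2 scale, with an unadjusted p of 0.00272 and an adjusted p of 0.219 (edgeR, with the culture as a block), in a comparison that called 0% of 18725 genes.

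Among the astrocyte members, Gfap in cells was higher at 120 mg/dL in 5 of 6 cultures (0.30 ± 0.14, SE, unadjusted p = 0.0478) and differed by 0.02 at 320 mg/dL (interval -0.27 to 0.32). In 3F, where it was lowest, it stood at 9.86 CPM in control, 21.0 CPM at 120 mg/dL and 19.5 CPM at 320 mg/dL. In 3M, where it was among the highest, the same levels were 207, 177 and 141 CPM. S100b was also nearer the middle with ethanol in these cultures, from 5.10 to 7.87 CPM in 3F and from 15.9 to 9.44 CPM in 3M between 0 and 320 mg/dL. The sex difference of the response was 0.59 ± 0.21 (SE) for Gfap and 0.54 ± 0.21 for S100b, with unadjusted p of 0.0157 and 0.0264 and adjusted p of 0.226 and 0.241. In EVs, S100b was lower at 320 mg/dL in 5 of 6 cultures (-0.71 ± 0.29, SE, unadjusted p = 0.028, adjusted p = 0.346), from 2 to 32 counts per library. Aldh1l1 differed by -0.17 ± 0.09 (SE) in cells and by -0.11 ± 0.23 in EVs. The other 5 members tested in EVs differed by between -0.22 (Cspg4) and 0.19 (Olig2) at 320 mg/dL.

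In EVs the members divided into genes that were lower than in cells and genes that were higher. Of 9 tested, 6 passed, 2 of them higher in EVs (Sox10 and Cspg4) and 4 lower (Gfap, Aldh1l1, S100b and Olig1), where 80.5% of 15281 genes passed, 38.4% higher and 42.2% lower. This test treats the dose samples of a culture as separate, and the 18 pairs of EV and cell libraries likewise come from 6 cultures. With the counts of a culture added up and the culture as a block, 8 members passed, beside 13779 of 19677 genes. All 3 detected astrocyte genes were lower in EVs. Gfap ranged from 8.20 to 118 CPM in EVs, with a median of 25.7 CPM, and from 9.86 to 207 CPM in cells, with a median of 56.7 CPM. It was lower in the EVs of 17 of the 18 pairs of culture and dose, by -1.13 ± 0.33 (SE) on the log2 scale (adjusted p = 0.00257), and the groups overlapped. Without set 5 Gfap no longer passed (-0.71, adjusted p = 0.185). Aldh1l1 was lower in all 18 pairs (-0.95 ± 0.27, SE, adjusted p = 0.00154), and S100b in 15 of 18 (-0.87 ± 0.17, SE, adjusted p = 2.71e-05). With library totals as the scale all 3 were lower still, by -1.88, -1.81 and -1.63, and in libraries thinned to the smallest total Gfap differed by -0.65 (adjusted p = 0.0892) and the other two could not be tested.

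Of the transcription factors, Olig1 ranged from 93 to 357 CPM in EVs and from 152 to 480.0 CPM in cells and was lower in the EVs of 17 of 18 pairs, by -0.44 ± 0.17 (SE, adjusted p = 0.0195). That call was lost without set 4 or set 5 (adjusted p = 0.0646 and 0.0860), and with every library thinned to the smallest total, where Olig1 differed by 0.07. Olig2 differed by -0.33 ± 0.19 (SE, adjusted p = 0.119) and Nkx2-2, with a median of 4.5 counts in EVs, by 0.33 ± 0.33 (SE, adjusted p = 0.360). With each EV library paired to the cells it came from, both passed, Olig2 at -0.32 (adjusted p = 0.0236) and Nkx2-2 at 0.55 (adjusted p = 0.0406).

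Cspg4 ranged from 15.3 to 43.1 CPM in EVs and from 8.49 to 23.0 CPM in cells, and was higher in the EVs of 17 of 18 pairs by 0.88 ± 0.13 (SE, adjusted p = 1.79e-07). Scaled by library totals, which lowers the median of all genes from -0.08 to -0.88 and the higher share of the calls from 47.6% to 27.0%, it differed by 0.12 (adjusted p = 0.549), and with no filter on low counts by 0.26 (adjusted p = 0.124), while Olig2 and Pdgfra then passed as lower. The mitochondrial ribosomal RNA mt-Rnr2 took a median of 24.9% of the counts in cells and 8.86% in EVs. Pdgfra overlapped in full, 4.91 to 28.6 CPM in EVs and 4.60 to 41.3 CPM in cells, with a difference of -0.25 ± 0.26 (SE, adjusted p = 0.373). Sox10 was higher in the EVs of 17 of 18 pairs by 2.02 ± 0.32 (SE, adjusted p = 6.06e-07). Its EV values rest on 1 to 26 counts per library with a median of 9.5, and the highest, 44.1 CPM in 4F at 320 mg/dL, was 26 counts in a library of 1.55 M. Without the 6 EV libraries under 2 M counts, a choice made after the totals were seen, Sox10 was still 1.58 higher (adjusted p = 3.81e-05) and 6 members passed.

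**Figure D3:**
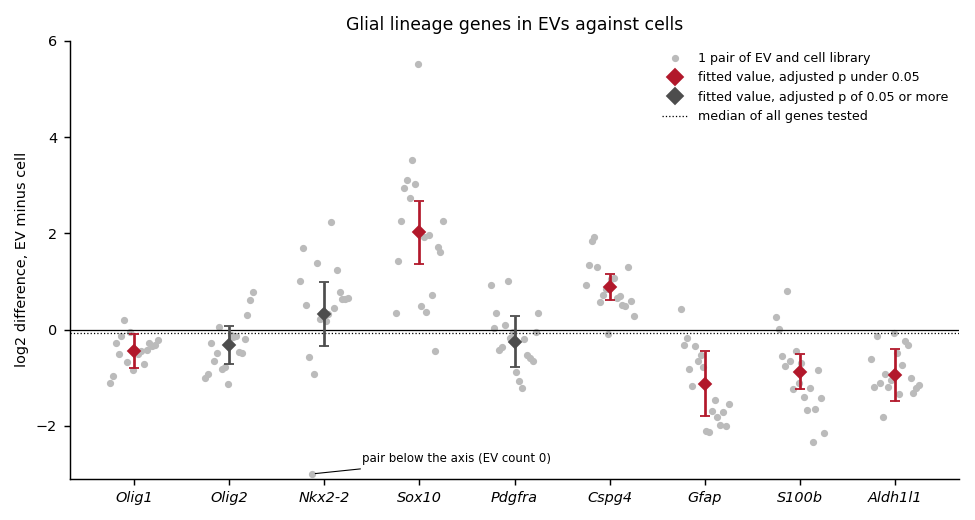
Log2 difference of EVs from cells (y axis) for the 9 detected members (x axis). Diamonds are the fitted values with 95% intervals, red where the adjusted p was under 0.05, the dotted line is the median of all genes (-0.08), and grey points are the 18 pairs of culture and dose; the 3 astrocyte genes and Olig1 lie below 0, Cspg4 and Sox10 above it, and 1 Nkx2-2 pair whose EV library had a count of 0 is drawn at the lower edge.

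Markers of microglia, endothelium, pericytes and fibroblasts were summed by list in each library. Of these 26 genes only 9 passed the filter on low counts, some mainly through EV libraries in which they were high, so that their direction is no test of the lists. The pericyte list summed to 57.3 to 241 CPM in EVs and 12.05 to 36.1 CPM in cells, most of it Notch3, which neural progenitors also express, and the endothelium list to 6.81 to 79.6 CPM in EVs and 2.18 to 6.26 CPM in cells. The microglia list summed to 1.09 to 16.5 CPM in EVs and 0.564 to 0.961 CPM in cells, and the fibroblast list to 4.09 to 30.6 CPM in EVs and 1.10 to 3.50 CPM in cells. P2ry12 of the microglia list was listed at 0 throughout and lies wholly inside another gene, and Cldn5, the tight-junction gene of endothelium, was at 0 in every EV library. The part of these transcripts, or of the lower depth, in the higher values of Sox10 and Cspg4 was not tested.

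Differences between cultures were present in the EVs as well, but not always in the same order. Of the members, 8 passed the filter on low counts there, which left out Nkx2-2 and Aqp4, and these 8 differed between cultures, as did 50.7% of 11880 genes. Gfap spanned 3.55 on the log2 scale in EVs (adjusted p = 3.12e-07), with 102 CPM ± 21.3 (SD, n = 3 doses) in 3M, 52.0 CPM ± 3.17 in 5M and 8.99 CPM ± 0.936 in 4M. Olig1 was highest in 3M in EVs as in cells, at 346 CPM ± 10.1, and lowest in 5F at 113 CPM ± 17.96. Olig2 was highest in 4M at 96.8 CPM ± 5.45 in EVs, where 3F, the highest in cells, averaged 75.1 CPM ± 1.28. Pdgfra was highest in 5F and lowest in 3M in both, and Aldh1l1 highest in 3M and lowest in 3F. For S100b, 3F was lowest in cells at 6.28 CPM but ranked 2 in EVs at 5.81 CPM. For Sox10, 4F ranked 5 in cells at 0.765 CPM and 1 in EVs at 19.3 CPM ± 21.5. The span of Sox10 (2.85, adjusted p = 0.0182) was not called without set 4 (0.61, adjusted p = 0.660) or without the 6 libraries under 2 M counts (adjusted p = 0.0744), and those of Cspg4 and S100b were each lost without set 5 (adjusted p = 0.343 and 0.121), Cspg4 also without set 4 and S100b without set 3 (adjusted p = 0.0795 and 0.0952). With library totals, Cspg4 and Pdgfra did not pass (adjusted p = 0.0629 and 0.0822).

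**Figure D4:**
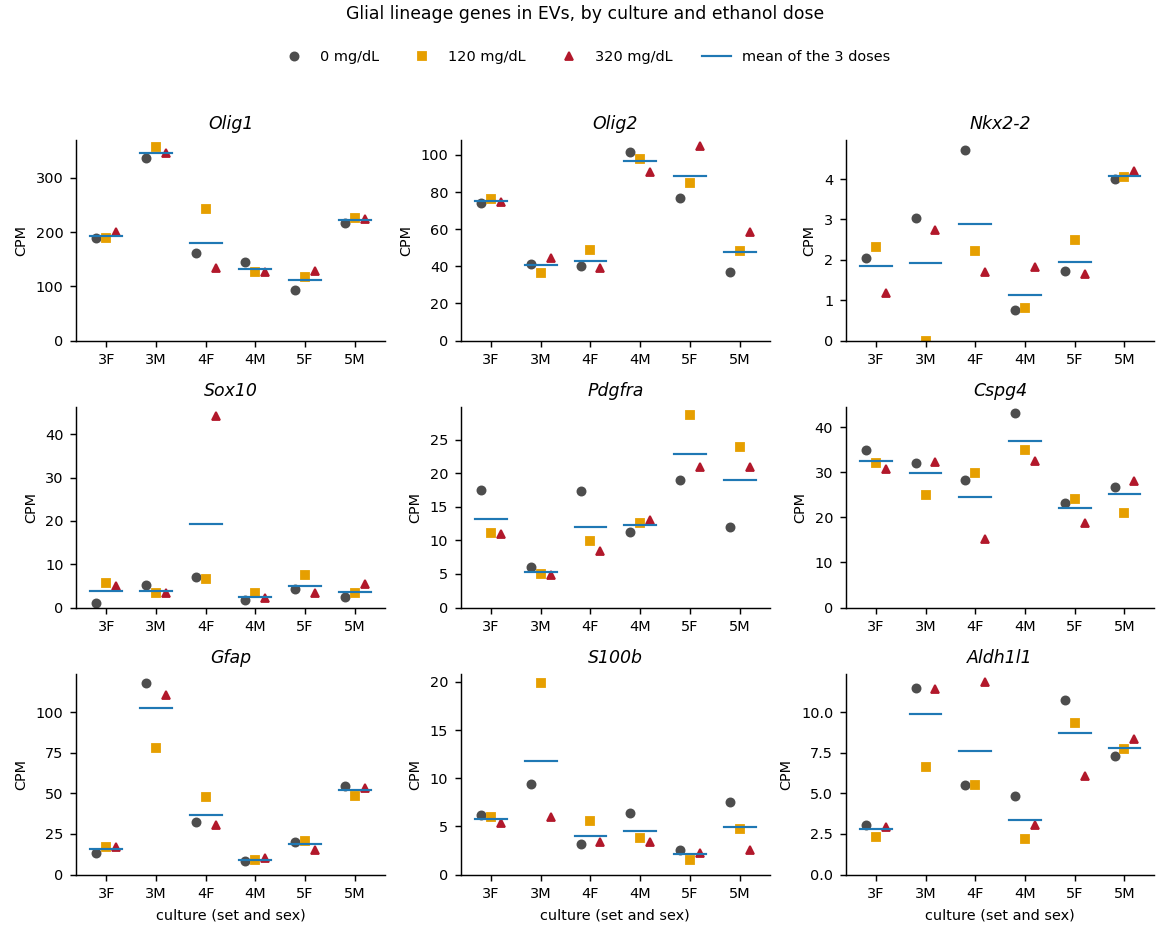
CPM of the 9 detected members in EVs (y axis, from 0) in each culture (x axis), with 1 point per ethanol dose and a bar at the mean of the 3 doses. Olig1 is highest in 3M as in cells, and Gfap, about level in 5M and 3M in cells, is highest in 3M. The single high Sox10 point in 4F at 320 mg/dL is 44.1 CPM from 26 counts, and Sox10 and Nkx2-2 rest on at most 26 counts per library.

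Between the sexes, 1 of 9 members passed in cells, where 5.83% of 17052 genes did, and 0 of 8 in EVs, where 11.1% of 11037 genes did. Of those calls 54.9% were higher in females in cells and 63.4% in EVs, and with library totals 30.5% and 91.4%. S100b was lower in female cells, at 6.92 CPM ± 0.600 (SD, n = 3 cultures) against 11.7 CPM ± 1.15 in males, and lower in the female culture of all 3 sets. The 9 female libraries, from 5.10 to 7.97 CPM, did not overlap the 9 male ones, from 9.44 to 15.9 CPM. Its difference was -0.80 ± 0.12 (SE, adjusted p = 0.00138), a test that treats the dose samples of 1 culture as separate. When the counts of a culture were added up before the test the adjusted p was 0.484, without set 5 it was 0.0575, and the exact permutation test over the 3 and 3 culture means gave p = 0.1, the smallest that design allows. Gfap averaged 45.4 CPM ± 24.9 in female and 129 CPM ± 80.9 in male cells and differed by -1.55 ± 0.46 (SE, adjusted p = 0.0565 in edgeR and 0.00713 in DESeq2), but it was lower in females in sets 3 and 5 and higher in set 4, where 4F averaged 57.2 CPM and 4M 35.4 CPM. Olig2 was the one member with higher female values near the threshold (0.72 ± 0.28, SE, adjusted p = 0.131), and it passed with the set as a block (0.88, adjusted p = 0.0357). Without set 4, Gfap, Nkx2-2, Aldh1l1 and Olig2 also passed in cells (adjusted p = 0.018, 0.00305, 0.0429 and 0.00428), and Gfap and Olig2 in EVs (adjusted p = 0.0013 and 0.00619). Set 4 was the set in which each of these ran the other way. In cells, Nkx2-2 averaged 1.67 CPM in 4F and 0.559 CPM in 4M, Aldh1l1 12.2 and 5.82 CPM, and Olig2 80.0 and 106 CPM. These fits also treat the dose samples of a culture as separate. With all sets, the exact permutation test in cells gave p of 0.3, 0.5, 0.5 and 0.2 for the 4 genes. The remaining members in cells lay between -1.19 (Nkx2-2) and 0.87 (Sox10) with all sets, and overlapped between the sexes. In EVs, Sox10 passed without set 3 (adjusted p = 0.0372). With all sets, the members in EVs with an unadjusted p under 0.05 numbered 2 of 8, Gfap (-1.13 ± 0.51, SE) and Sox10 (1.25 ± 0.48), beside 3434 of all 11037 genes.

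Other genes of the 2 lineages were read from lists drawn up from general knowledge. Of 26 further oligodendrocyte genes, 21 were tested in cells, and 17 differed between cultures, where 70.2% of all genes did, led by C1ql1 (span 3.72 on the log2 scale), Bcas1 (3.16), a gene of cells about to myelinate, and the transcription factor Sox6 (2.37). Of 26 further astrocyte genes, 25 were tested and 23 differed, led by the radial glia gene Hopx (3.67), the BMP target Id3 (3.54) and Ndrg2 (3.23). Genes outside the 2 lineages differed too, with 7 of 7 neural stem cell genes, led by Hes5 (2.96) and Prom1 (2.73), and 5 of 8 neuron genes, led by Snap25 (3.30) and Dcx (2.94). The precursor genes Ptprz1 and Bcan ranged from 508 to 1136 and from 101 to 265 CPM in cells. The myelin genes Mag and Mog did not exceed 0.0726 and 0.144 CPM in cells, and Mbp lay between 0.701 and 2.33 CPM. The radial glia and astrocyte genes Slc1a3, a glutamate transporter, and Fabp7, a fatty acid carrier, ranged from 542 to 1188 and from 306 to 1389 CPM.

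In EVs, 22 of 25 further astrocyte genes passed against cells, where 80.5% of all genes did. Of the astrocyte genes 20 were lower and 2 higher, beside 42.2% and 38.4% of all genes. Their median was -1.33 on the log2 scale against -0.08 over all genes. The lowest were Tnc (-3.53 ± 0.19, SE), Gja1 (-3.33 ± 0.23), Cd44 (-3.28 ± 0.24) and Slc1a3 (-3.11 ± 0.14), which encode a matrix protein, a gap junction subunit, a hyaluronan receptor and the glutamate transporter. Of the oligodendrocyte list, 8 of 21 tested were higher, 7 were lower, and the median was -0.09. These list values were computed with TMM scaling alone. Mobp (2.89 ± 0.36) and Enpp6 (2.55 ± 0.31) were higher in EVs and Opalin (-2.57 ± 0.42) and the proteoglycan Vcan (-2.52 ± 0.18) lower. Enpp6 had a median of 0.370 CPM in cells and 1.65 CPM in EVs, and Opalin 2.32 CPM in cells and 0.136 CPM in EVs. Genes this low can pass the filter mainly through the location where they are high, so that their direction is no test of the list. No gene of either list was called at either dose of ethanol in cells or EVs.

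Between the sexes in cells, 7 of 25 further astrocyte genes passed, all lower in females, among them Ndrg2 (-1.42 ± 0.31, SE), Cd44 (-1.22 ± 0.31), the lipid carrier Apoe (-1.12 ± 0.29) and Clu (-1.004 ± 0.19), beside 5.83% of all genes. Of 21 further oligodendrocyte genes 3 passed, Bcas1 (1.49 ± 0.38) and Sox8 (0.68 ± 0.15) higher and Cnp (-0.77 ± 0.14) lower in females. In EVs, 3 of 23 further astrocyte genes passed, all lower in females, and 2 of 11 oligodendrocyte genes, both higher, beside 11.1% of all genes. These tests also treat the dose samples of a culture as separate. With the counts of a culture added up, 7 of 20972 genes were called in cells and 0 of 14847 in EVs, where 2229 had an unadjusted p under 0.05. None of the EV calls was thus kept. Whether any of the cell calls of the 2 lists were among those 7 was not examined.

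Of 16 genes for signals that act on glial fate, 14 were tested in cells and 13 differed between cultures, where 70.2% of all genes did. Shh, a ventral signal that promotes oligodendrocyte precursors, had the widest span, 6.18 on the log2 scale, and averaged 13.1 CPM in 3M, 2.56 CPM in 4F, 1.67 CPM in 3F and at most 1.14 CPM in 5M, 5F and 4M. Bmp2 (5.26), Fgf2 (3.66) and Lif (2.83) followed. Beside the same 70.2% of all genes, 5 of 7 ventral telencephalon genes differed, led by the progenitor factor Gsx2 with 6.93. Of the dorsal ones 7 of 8 did, led by the proneural factor Neurog2 with 3.95. Both leading spans start near the floor and rest on few counts there. Gsx2 averaged 4.62 CPM in 5F and 0.0375 CPM in 4M, and Neurog2 1.06 CPM in 4M and 0.0769 CPM in 4F. Egfr, the receptor for a mitogen of neurosphere medium, averaged 291 to 366 CPM in 3M, 3F and 4F and 585 to 650 CPM in 5M, 4M and 5F.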

How the data were processed

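Total RNA of NSC neurospheres and of the EVs from their medium was sequenced from ribosome-depleted, stranded libraries. The authors trimmed reads with Trimmomatic, aligned them with STAR to the mouse build mm39 and used HTSeq to count reads by gene, and the deposited values used here are these raw read counts, not normalized. The counting mode and strand setting are not given in the sources used here, and a gene that overlaps others can lose reads to them. Samples were grouped by location, sex and dose, and the replicate number names the pregnancy.

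Counts were tested with edgeR 4.0.16 (R 4.3.3), with TMM scaling, filterByExpr (minimum count 10, minimum total 15), quasi-likelihood F tests and Benjamini-Hochberg adjustment at 0.05 over all genes tested. Dose and culture were fitted together in cells and in EVs, with the culture as a block, EVs against cells had terms for sex and dose, and sex had a term for dose. CPM used 1 TMM scale over 36 libraries and log2 CPM a prior count of 1. Alternatives were DESeq2 1.42.0, median-of-ratios and library-total scaling, no filter, thinning, sums over doses, other blocks and leaving out each pregnancy. Deviations of libraries from their condition mean correlated between the doses of a culture with a median of 0.679 in cells (18 of 18 pairs over 0.1) and 0.196 in EVs (17 of 18), and between the sexes of a pregnancy with medians of 0.376 (6 of 9) and 0.106 (5 of 9), where the labels give the shared pregnancy. The p-values on cultures measure the spread between the dose samples of a culture. On simulated counts with 200 genes changed 2-fold, 71.0% were recovered between EVs and cells, 69.5% at 320 mg/dL in cells and 63.5% in EVs, and 56.5% and 64.5% between the sexes in cells and EVs. The simulated counts were drawn separately for each library. The shares for EVs against cells and for the sexes thus leave out the likeness of the doses of a culture. Changes smaller than 2-fold were not simulated.

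The members and gene lists were chosen with earlier results of these data known. Besides the members, the genes named are at most 4 of a list per comparison, those called with the largest change, and the 3 genes most like each of the 3 members with the widest span. The listed genes whose levels alone are given, and the genes at 0, were chosen after their values were seen. Figures were drawn with matplotlib 3.10.9.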

Additional observations from a re-analysis of the deposited data

Results flagged for a closer look

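Within each dose of cells or EVs, 54 groups of 6 cultures were checked for a library whose gap to its neighbour was a large share of the range, a check that chance meets in about 1 of 20 groups, and 2 met it. Sox10 in the EVs of 4F at 320 mg/dL stood at 44.1 CPM, from 26 counts, while the other 5 cultures lay between 2.13 and 5.44 CPM, a gap of 0.692 of the range on the log2 scale. Nkx2-2 in the EVs of 3M at 120 mg/dL had a count of 0, while the others lay between 0.819 and 4.04 CPM (0.667 of the range), and 3 counts in that library would have been 4.98 CPM.

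For 3 member and dose combinations in cells, every female culture lay on one side of its control and every male culture on the other. Some lay close to control on the log2 scale, for Cspg4 4M by 0.00, 4F by -0.10 and 5F by -0.11. For Gfap, 4F differed by 0.05, 5F by 0.09 and 4M by -0.12. For S100b, 4F differed by 0.01, 4M by -0.05 and 5M by -0.07. Cspg4 at 320 mg/dL differed by -1.24 on the log2 scale between the mean female change of -0.43 and the mean male change of 0.81, Gfap at 320 mg/dL by 0.67 (0.37 in females and -0.29 in males), and S100b at 120 mg/dL by 0.40 (0.20 and -0.20). The edgeR tests of the 320 mg/dL differences had adjusted p of 0.219 and 0.226, and the 120 mg/dL difference of S100b was not tested.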

How the results depend on the processing

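Of 950 values of single members under other settings, 912 kept their direction and side of the threshold, 17 lost a call, 20 gained one and 1 called value turned, Olig1 between EVs and cells, at 0.066 with libraries thinned to the smallest total (adjusted p = 0.718). No member was called at either dose, or between doses, under any setting run. Members called between EVs and cells numbered 6, 4 to 6 without 1 pregnancy and 1, Cspg4, after thinning, where 8129 genes were tested. Members called between cultures numbered 7 to 8 in cells and 6 to 7 in EVs without 1 pregnancy. Between the sexes in cells 1 was called, 2 with DESeq2, with library totals and with the pregnancy as a replicate block, 0 with sums over doses, and 0 to 5 without 1 pregnancy. In EVs 0 were called, 1 with no filter, and 0 to 2 without 1 pregnancy. Beyond Olig2 and Nkx2-2 between EVs and cells with paired libraries, Olig2 and Pdgfra there with doses summed per culture, and Olig2 between the sexes in cells, the replicate block changed no call of a member. For the difference between sets 0 were called, and 1 with DESeq2.

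Over all genes, EVs against cells gave 12302 calls, 23256 with DESeq2 (72.9% of them higher in EVs), 22029 with no filter (57.4% higher) and 6380 after thinning. At 320 mg/dL, 7 calls in cells became 94 with DESeq2, 0 with median-of-ratios scaling, library totals, no filter or no replicate block, and 0 to 1 without 1 pregnancy. In EVs 10 became 267 with DESeq2, 6 with library totals, 207 with no filter, 0 with no replicate block and 0 to 110 without 1 pregnancy. At 120 mg/dL, 0 in cells became 4 with DESeq2, and 1 in EVs became 13 with DESeq2, 0 with median-of-ratios scaling, 4 with library totals, 157 with no filter and 0 to 3 without 1 pregnancy. Between the doses 0 became 3 with DESeq2. Cultures in EVs gave 6021 calls, and 2428 to 5649 without 1 pregnancy. Between the sexes, 994 calls in cells became 2071 with DESeq2, 2953 with the replicate block, 7 with sums over doses and 198 to 2095 without 1 pregnancy, and 1224 in EVs became 2789, 2993, 0 and 2 to 2616, and 313 with library totals. The sex difference of the response gave 0 calls and 118 with DESeq2. The EV minus cell difference gave 0, and 248 with DESeq2, 3 with median-of-ratios scaling, 1 with library totals, 7 with no filter and 0 to 2 without 1 pregnancy. The set difference gave 0, and 12 with DESeq2, 2 with library totals, 3 with no filter and 0 to 2 without 1 pregnancy. Library totals moved the median of all genes by more than 0.1 on the log2 scale, to -0.12 in cells and -0.24 in EVs at 320 mg/dL and to -0.15 and -0.17 between the sexes. The cause of these differences was not tested. There was 1 library per culture and dose, and counts were low in EVs, with medians of 9.5 for Sox10, 4.5 for Nkx2-2, 10.5 for Aldh1l1 and 11 for S100b.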
